A study of Mus musculus with 8 samples.

Results

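The natriuretic peptide locus of the mouse holds Nppb and Nppa, neighbours on chromosome 4 that are read in the same direction. The locus was examined for regions listed as enriched for BRG1 in injured hearts. The members were the 2 genes by name, out of 37273 genes in the GENCODE annotation of mm9, together with every BRG1-enriched region from 50 kb before Nppb to 50 kb after Nppa. That window held 31 of the 524614 regions of the list.

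The study asked whether BRG1 acts at Wt1 alone or might also regulate further genes of the epicardium. It compared BRG1 binding between injured hearts primed with PBS and with thymosin β4 (Tβ4), an actin-binding peptide given before an infarct to prime the epicardium. Adult mice, C57BL/6 in the labels and C57BL/6J in the methods, received daily intraperitoneal Tβ4 at 12 mg per kg, or PBS, for 1 week. The labels give their age as 10 to 12 weeks, whereas the methods give a somewhat older range for mice with an infarct. On day 0 the left anterior descending artery was tied off for good to cause a myocardial infarction (MI), injections were repeated on days 0 and 2, and hearts were taken on day 4 for chromatin immunoprecipitation with an anti-BRG1 antibody. Each arm had 2 immunoprecipitated and 2 input libraries (input is chromatin sequenced without the antibody). The regions described here come from the Tβ4-primed, injured hearts only, as 1 list of enrichment over input with the duplicates combined; a list for the PBS-primed hearts was not analysed here. Each region has a start and an end but no height, fold enrichment or p-value, and the sequencing depth behind it is unknown. Replicates were not separated in the list, so no difference below was tested, neither between the genes nor between treatments. The list is named in the manner of MACS2's differential output, while the methods name another function, so whether it holds every enriched region or 1 class of a comparison is not known. Absence from the list is therefore not absence of BRG1. Chromatin came from whole hearts, and which cell types carried BRG1 at a region cannot be told apart.

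Nppa encodes atrial natriuretic peptide and Nppb encodes B-type natriuretic peptide, hormones that heart muscle cells release when they are stretched and that promote salt and water excretion and lower blood pressure. Both genes are active in the fetal ventricle, become quiet there after birth, more completely for Nppa, and return in hypertrophy, heart failure and around an infarct, which has made them the standard markers of the fetal gene programme. BRG1 is the ATPase of SWI/SNF complexes, which slide or evict nucleosomes and so change the access of transcription factors to promoters and enhancers.

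The promoter sequences are shown first, because a BRG1 region covered that of Nppb and none covered that of Nppa. Lower-case letters are mm9 sequence on the strand of the genes, and capitals mark words of known cardiac motifs found by a search of both strands, described further on. The 250 bases upstream of the annotated transcription start site (TSS) of Nppb, chr4:147359647-147359896 (+, mm9), lay wholly inside a region and held no such word. A 27-base stretch just past that TSS, chr4:147359904-147359930 (+, mm9), also inside the region, held an M-CAT word (GGAATG on this strand) followed by GATA words TGATAA and AGATAA. The RefSeq annotation places the start of Nppb 112 bp further downstream. From that start the M-CAT and GATA words lie upstream, as does a TATA box, so the lack of upstream words depends on the start used. The 250 bases upstream of the TSS of Nppa, chr4:147374581-147374830 (+, mm9), had 0 bases in a region; in order, the capitals mark a T-box word, an NKX2-5 word, a C/EBP word, a GATA word and a TATA box. The nearest region upstream of Nppa is represented by its middle 300 bases, chr4:147371670-147371969 (+, mm9), with overlapping C/EBP words and then a GATA word in capitals.
Nppb upstream: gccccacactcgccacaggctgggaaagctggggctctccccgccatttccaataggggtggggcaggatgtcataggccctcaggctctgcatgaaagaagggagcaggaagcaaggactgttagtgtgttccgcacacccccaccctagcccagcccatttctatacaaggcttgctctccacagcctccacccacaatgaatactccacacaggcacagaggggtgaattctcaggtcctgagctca
Nppb M-CAT to GATA: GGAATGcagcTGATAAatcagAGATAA
Nppa upstream: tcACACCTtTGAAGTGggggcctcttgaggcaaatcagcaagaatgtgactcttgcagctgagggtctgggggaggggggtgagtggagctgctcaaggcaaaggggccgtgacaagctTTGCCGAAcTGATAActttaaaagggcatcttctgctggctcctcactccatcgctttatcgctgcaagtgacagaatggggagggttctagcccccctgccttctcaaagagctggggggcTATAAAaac
Nppa nearest upstream region: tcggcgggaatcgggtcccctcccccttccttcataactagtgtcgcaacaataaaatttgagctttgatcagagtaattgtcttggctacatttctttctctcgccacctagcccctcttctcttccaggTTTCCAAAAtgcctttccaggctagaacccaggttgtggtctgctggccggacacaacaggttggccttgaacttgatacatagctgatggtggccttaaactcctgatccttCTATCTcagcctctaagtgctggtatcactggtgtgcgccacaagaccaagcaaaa

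Nppb lay entirely within 1 broad BRG1 region, whereas the body of Nppa contained none. Nppb spans chr4:147359897-147361314 (+, 1418 bp, 3 exons) and Nppa chr4:147374831-147376188 (+, 1358 bp, 3 exons), with the TSSs 14934 bp apart. At Nppb every exon, intron and untranslated stretch was covered, and at Nppa none was. Of 22367 protein-coding genes, 24.2% had a region over the TSS, so the count of 1 of the 2 members is read against that share. Regions held 25.8% of mm9, so the list as a whole was not concentrated at gene starts. A region somewhere in the body was found for 84.1% of protein-coding genes, but for 46.6% of the 3341 genes with a length 0.5 to 2 times that of the members, since short genes offer less room. The lack of a region in Nppa was therefore common among genes of its size. Being wholly inside 1 region was rare: it applied to 2.2% of all protein-coding genes and to 9.73% of those of similar length.

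The region over Nppb ran from 147354930 to 147361949, that is from -4.97 kb to 2.05 kb relative to the TSS, and was 7020 bp long. Only 8773 regions of the list (1.67%) were as long or longer, and the median region measured 600 bp. After a break of 210 bp a further region of 2460 bp extended from 2.26 to 4.72 kb past the TSS. The gene thus sat within a nearly continuous block of BRG1 enrichment that would measure 9690 bp if the break were bridged. Of the 5 kb upstream of the TSS, where the promoter and proximal control sequences lie, 99.3% was covered, against a median of 17.8% over protein-coding genes. The 5 kb past the gene's end were covered to 61.9%. Counted with 5 kb on each side, 83.0% of Nppb was inside a region, which placed it at percentile 99.5 of protein-coding genes (median 25.2%, ties split evenly) and at percentile 98.1 of the 3300 genes of similar length. By number of regions, Nppb had 2 against a median of 6 over all protein-coding genes and 3 over those of similar length (percentile 36.8). Further upstream, short regions followed from -6.77 to -6.23 kb (540 bp), from -8.51 to -8.21 kb (300 bp) and from -12.7 to -12.3 kb (360 bp). The longest stretch of the window without a region, 14310 bp, came next, from -27.0 to -12.7 kb.

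Nppa stood in a gap of 6510 bp that held its promoter, its whole body and the sequence just past it. The gap ranked 3 of the 30 gaps of the window by length, and 18.0% of the gaps in the list were as long or longer. A region within 5 kb upstream was present at 76.3% of protein-coding genes and at both members, but at Nppa it was a short one of 360 bp from -3.19 to -2.83 kb, chr4:147371640-147371999. It covered 7.2% of that 5 kb. Its near edge lay 2832 bp from the TSS, and the median distance from a protein-coding TSS to the closest region was 738 bp. On the downstream side the closest region was 510 bp long and began 3.68 kb past the TSS, inside the last part of the neighbouring gene Clcn6. With 5 kb on each side, Nppa was covered to 15.4% by 3 regions, at percentile 24.8 of protein-coding genes and 40.1 among the 3232 of similar length. Its cover was thus unremarkable for a gene of its size, in contrast to the place of Nppb near the top. Whether the difference between the genes exceeds that between replicate hearts was not tested, as the list holds 1 value for each.

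**Figure D1:**
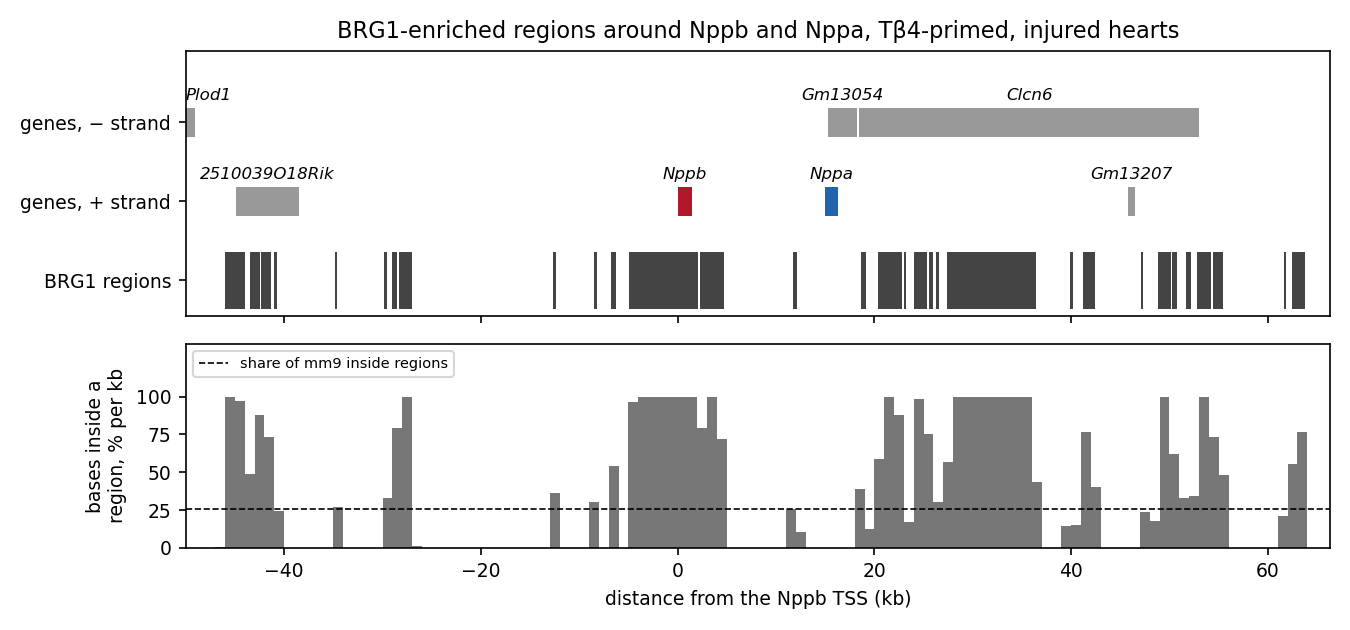
Map of the locus by distance from the Nppb TSS in kb. The upper panel shows the genes described in the text by strand and the 31 BRG1-enriched regions as dark blocks; the lower panel shows the percentage of each kb inside a region, with a dashed line at 25.8%, the share for mm9. A block surrounds Nppb, Nppa lies in a gap, and a second broad block lies within Clcn6.

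How far the contrast reached was read from windows centred on each TSS. Within 1 and 2 kb on either side, Nppb was covered to 100% and Nppa to 0%, where protein-coding genes had medians of 11.3% and 15.3%. Their lower quartile was 0% in both windows, so a share of 0% was common. Nppa lay at percentiles 22.3 and 14.6, and Nppb at 97.1 and 98.9. Within 5 kb the shares were 94.8% and 8.70%, beside a median of 22.2%. The order was the same within 10 kb, at 51.6% for Nppb and 22.2% for Nppa. Within 25 kb it turned round: 30.4% for Nppb (percentile 67.4) and 49.9% for Nppa (percentile 97.0). Both of these windows hold the block at Nppb and some regions in Clcn6. Only that around Nppa takes in the 9000-bp region of Clcn6, and only that around Nppb reaches into the empty stretch of 14310 bp. Within 50 kb the values were 34.8% and 35.5%, both above the median of 25.3%. The difference between the genes was therefore a matter of the nearest 10 kb, and wider windows share most of their sequence.

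**Figure D2:**
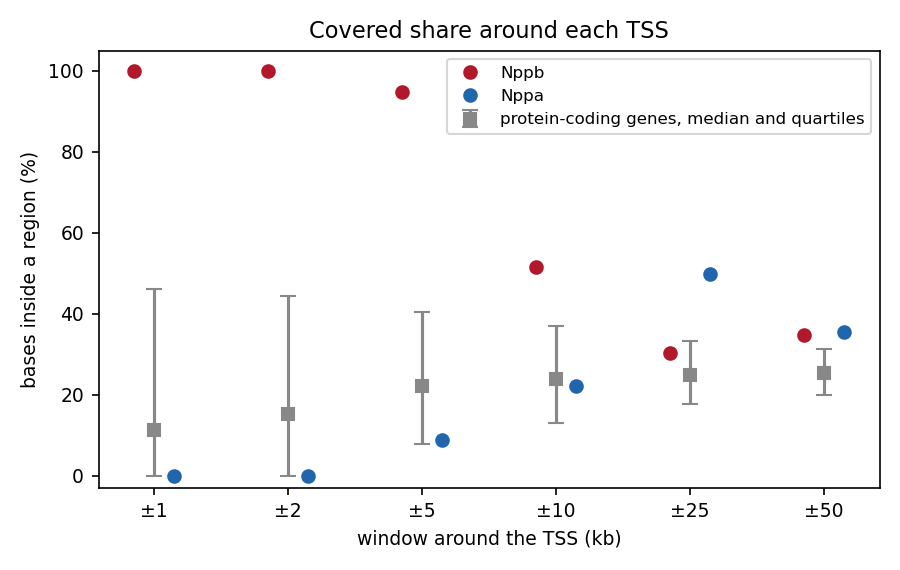
Percentage of bases inside a BRG1 region in windows from 1 to 50 kb on either side of each TSS, for Nppb (red) and Nppa (blue). Grey squares and bars give the median and quartiles of 22367 protein-coding genes. Nppb lies at 100% and Nppa at 0% in the narrow windows, and Nppa is the higher of the pair within 25 kb.

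The 13516 bp between the genes, which hold sequence upstream of Nppa and downstream of Nppb, were covered to 25.6% by 3 regions. Cover was uneven there: 45.8% of the part nearer Nppb and 5.33% of the part nearer Nppa. The 50 kb before Nppb were covered to 25.8% by 12 regions, counting the block at Nppb, which reaches into both intervals, and the 50 kb after Nppa to 44.2% by 17. The flank beyond Nppa, which is mostly Clcn6, was thus the more densely covered side.

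Altogether 39870 of the 116292 bp of the window chr4:147309897-147426188 (34.3%) were inside a region, compared with 25.8% of mm9 and 25.7% of chromosome 4. Among 238017 autosomal windows of the same size, taken every 10 kb, the median was 26.1% and the middle 95% ran from 11.9% to 44.0%. The locus lay at percentile 82.8, and 17.2% of the windows were covered at least as much, so the neighbourhood as a whole was moderately rich in BRG1 regions and not extreme. By number, its 31 regions compared with a median of 24 per window (quartiles 20 and 28). These windows overlap and are not independent, and their percentiles describe only where the locus falls.

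**Figure D3:**
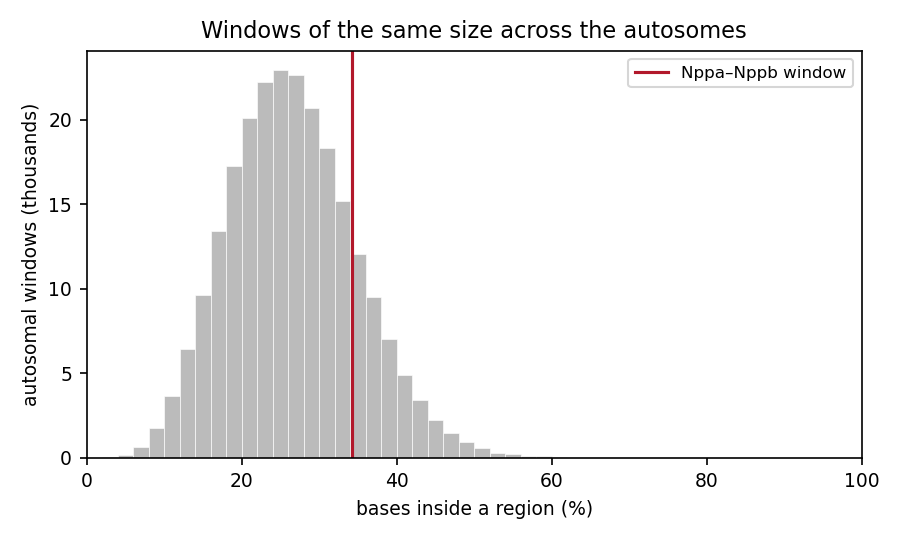
Distribution of the percentage of bases inside a BRG1 region over 238017 autosomal windows of the size of the locus; the vertical axis gives the number of windows in units of 1000. The red line marks the locus at 34.3%, above the median of 26.1% and within the body of the distribution.

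The regions of the locus were mostly short, with a few broad ones that held much of the covered sequence. Their median length was 540 bp (range 210 to 9000), against 600 bp in the list; 18 were under 1 kb, 9 from 1 to 2 kb and 4 of at least 2 kb. Only 12.9% were 2 kb or longer, compared with 19.3% of the list. The 2 broadest, the one over Nppb and one of 9000 bp in Clcn6, contributed 16020 bp, or 40.2% of all covered bases. Per kb of the map, 20 of 117 bins were wholly covered, 42 partly and 55 not at all. Base composition differed little between covered and uncovered sequence: G and C made up 50.2% of bases inside regions and 48.3% outside. Genome-wide the shares were 41.4% inside regions and 41.9% outside, in the opposite order. The window as a whole, at 49.0%, was richer in G and C than both.

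**Figure D4:**
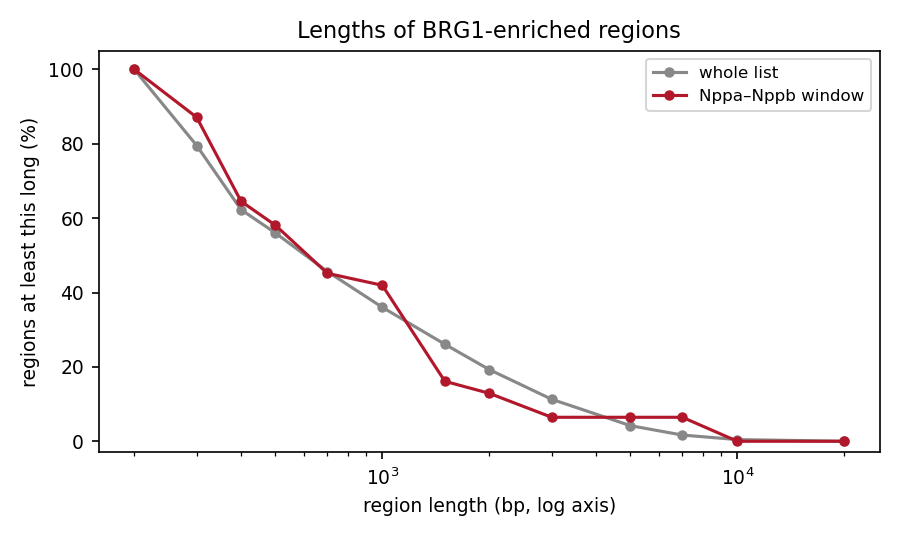
Percentage of regions at least as long as the length on the horizontal log axis (bp), for the whole list (grey) and for the 31 regions of the locus (red). From 7000 bp the locus has 6.45% (2 regions) and the list 1.67%, while from 2000 bp the locus has 12.9% and the list 19.3%.

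Of the 31 regions, 22 touched an annotated gene and 9 lay outside genes. Besides Nppb, the starts of 2510039O18Rik and Clcn6 had a region over them, while those of Nppa and Plod1 had none. Clcn6, which encodes a chloride-proton exchanger of late endosomes and runs on the opposite strand towards Nppa, had 14 regions over 34563 bp and was covered to 53.2%. Its 9000-bp region, chr4:147387330-147396329, began 12.5 kb and ended 21.5 kb past the Nppa TSS and was the longest of the window; 0.699% of the list was as long. This intragenic block, not the surroundings of Nppa itself, accounted for much of the cover on that side. On the far side of Nppb, 2510039O18Rik was covered to 49.9% by 4 regions. Plod1, a collagen lysyl hydroxylase gene of which only the first part lies in the window, was covered to 18.7% over its whole body, with its TSS 2057 bp from a region. Gm13054, a non-coding transcript antisense to part of Nppa, had no region over its 2924 bp, and neither had the pseudogene Gm13207. Of the neighbours, the antisense transcript thus shared the gap of Nppa.

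Other regions of the window fell into groups. On the side of 2510039O18Rik, 4 regions of 300 to 1980 bp lay between -46.0 and -40.8 kb from the Nppb TSS, the first of them over the start of that gene. An isolated region of 270 bp began at -34.9 kb, and a group of 300, 540 and 1290 bp spanned -29.9 to -27.0 kb outside any gene. These groups bound the long empty stretch on the distal side of Nppb.

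Within Clcn6, counted from the Nppa TSS, a region of 2430 bp lay at 5.48 to 7.91 kb, followed by one of 210 bp at 8.03 kb and one of 1320 bp at 9.08 to 10.4 kb. Those of 420 bp at 10.6 to 11.1 kb and 300 bp at 11.3 to 11.6 kb led up to the 9000-bp block. Enrichment past Nppa was thus broken into pieces at first and became continuous from 12.5 kb. Beyond the block came regions of 300 bp at 24.9 kb, 1170 bp at 26.3 to 27.5 kb and 240 bp at 32.1 kb, then 1290 bp at 33.9 to 35.2 kb, 510 bp at 35.3 to 35.8 kb and 480 bp at 36.7 to 37.2 kb. A region of 1380 bp followed over the start of Clcn6, at 37.9 to 39.3 kb.

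Short words of cardiac motifs were searched on both strands from 250 bases before to 50 after each TSS. GATA words (the core GATA preceded by A or T and followed by A or G), bound by GATA4 and its relatives, were present 2 times at Nppb, at 17 to 22 and 28 to 33 bases past the TSS, and 1 time at Nppa, at -122 to -117, in a set where 27.5% of protein-coding promoters had one. The M-CAT word CATTCC of TEAD factors was found at Nppb, 7 to 12 bases past the TSS, and in 13.4% of promoters. Nppa held an NKX2-5 word, TNAAGTG, at -241 to -235 (11.4% of promoters) and a T-box word, AGGTGT, at -248 to -243 (13.0%). It further held a C/EBP word, TTNNGNAA, at -131 to -124 (38.8%), a word of the cAMP response element, TGACG, 26 to 30 bases past the TSS (23.3%), and the TATA box TATAAA at -9 to -4 (13.4%). AP-1 (TGANTCA, 6.93%), CArG (1.47%) and MEF2 (3.08%) words were not among these 300 bases at either gene. Such words are frequent and a match is not a binding site.

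The position of the words at Nppb depends on the TSS used. RefSeq places the start 112 bp further downstream than GENCODE, as found by exact match of its promoter (table built on GRCm38.p6) to mm9, while both give the same start for Nppa. Counted from the RefSeq start, a choice made after seeing the data, the M-CAT word lay at -105 to -100, the GATA words at -95 to -90 and -84 to -79, and a TATA box at -31 to -26. With that start both promoters have a TATA box and at least 1 GATA word. Among 32851 RefSeq promoters, 13.6% had a TATA box and 29.8% had a GATA word. The promoter of Nppb lay inside the broad region from either start. Across the window, GATA words occurred at 2.03 per kb inside regions and 1.90 per kb outside, and C/EBP words at 1.63 and 1.90 per kb. All the other word sets searched were likewise less frequent inside than outside, such as NKX2-5 words at 0.426 and 0.589 per kb, TATA boxes at 0.401 and 0.550, and M-CAT words at 0.426 and 0.484. GATA words were thus the only set with a higher density inside the BRG1 regions of this locus, by a small margin that was not tested.

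The rest of the natriuretic peptide pathway was described from a list of 15 genes. The peptides are cut from precursors by Corin and Furin, act through the guanylyl cyclase receptors encoded by Npr1 and Npr2, which make cGMP, and are cleared by the receptor of Npr3 and by proteases. A region lay over the TSS of 5 of the 15 genes (24.2% of all protein-coding genes), in the body of 14 (84.1%) and in the 5 kb upstream of 13 (76.3%). The median covered share with 5 kb flanks was 28.0%, both with and without Nppa and Nppb, against 25.2% over protein-coding genes. As a group, the pathway was thus near the background.

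Among the ligands, Nppc, which encodes C-type natriuretic peptide of endothelium and cartilage, was covered to 56.1%, with a region over its TSS and 100% of its 5 kb upstream. The processing enzymes Corin and Furin were at 28.0% and 24.3%. Npr1, the receptor for the atrial and B-type peptides, had the lowest share of the list at 1.54%, from 1 region. Npr2, the receptor for the C-type peptide, was at 17.8%, and the clearance receptor gene Npr3 at 36.4% with a region over the TSS. The highest share of the list was that of Nppb, so its ends were a ligand and the receptor of that ligand. Downstream, the cGMP-dependent kinases Prkg1 and Prkg2 had 30.01% and 29.2%. Of the phosphodiesterases that break down cGMP, Pde5a had 30.9% and Pde2a 20.3%, both with a region over the TSS, and Pde9a 28.4%. The proteases Mme (neprilysin) and Ide were at 18.1% and 16.7%.

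Genes of heart muscle whose use shifts between the fetal or stressed and the adult state were taken as a list of 12, including Nppa and Nppb; Myh6, Atp2a2 and Tnni3 stand in it as adult counterparts. A region covered the TSS of 5, and of 4 of the 10 other than the members, beside 24.2% of protein-coding genes. It lay in the body of 10 (84.1%) and in the 5 kb upstream of 8 (76.3%). The median share was 38.7% with or without Nppa and Nppb, beside 25.2% over protein-coding genes. The list's median was the highest of the 3 lists, with no test of it. After Nppb the highest was Atp2a2, the calcium pump of the sarcoplasmic reticulum, at 54.3%, followed by the stretch-responsive Ankrd1 at 49.0% and cardiac actin Actc1 at 45.4%, all with a region over the TSS. The myosin heavy chain genes, whose balance shifts from Myh6 to Myh7 in stress, were at 41.9% for Myh6 and 10.6% for Myh7. Upstream the order was the other way, with 43.8% of the 5 kb before Myh7 covered and its nearest region 552 bp from the TSS, but 0% before Myh6 and its nearest region 4165 bp away. Skeletal actin Acta1, another stress marker, had 38.1%. Of the myosin light chains, Myl4 had 30.8% with a region over the TSS, while Myl7 had 0%, its nearest region being 8645 bp from the TSS, the lowest of the list. The troponin I genes Tnni1 and Tnni3 were at 39.2% and 28.1%. Cover thus varied within gene families here as it did between Nppb and Nppa, with no test of any of these differences.

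Of 14 transcription factor genes known to act on Nppa or Nppb, 4 had a region over the TSS (24.2% of protein-coding genes), 12 in the body (84.1%) and 9 within 5 kb upstream (76.3%), with a median share of 25.1%. Hand2 was highest at 48.4%, and Gata6 (42.7%) and Jarid2 (42.5%) also had covered starts, as did Tbx5 (28.0%). Gata4 and Nkx2-5, partners at cardiac promoters, were at 28.7% and 17.5%. Of the other T-box genes, Tbx3 was at 3.49%, the lowest of the list, Tbx20 at 8.64% and Tbx2 at 9.93%. In the 5 kb upstream Tbx2 was covered to 38.5%, above the median of 17.8%, and Tbx3 and Tbx20 to 0%. Mef2c (32.5%), Myocd (27.1%), Tead1 (23.1%), Rest (22.1%) and Srf (16.9%) made up the remainder. The group matched the median of protein-coding genes, 25.2%.

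**Figure D5:**
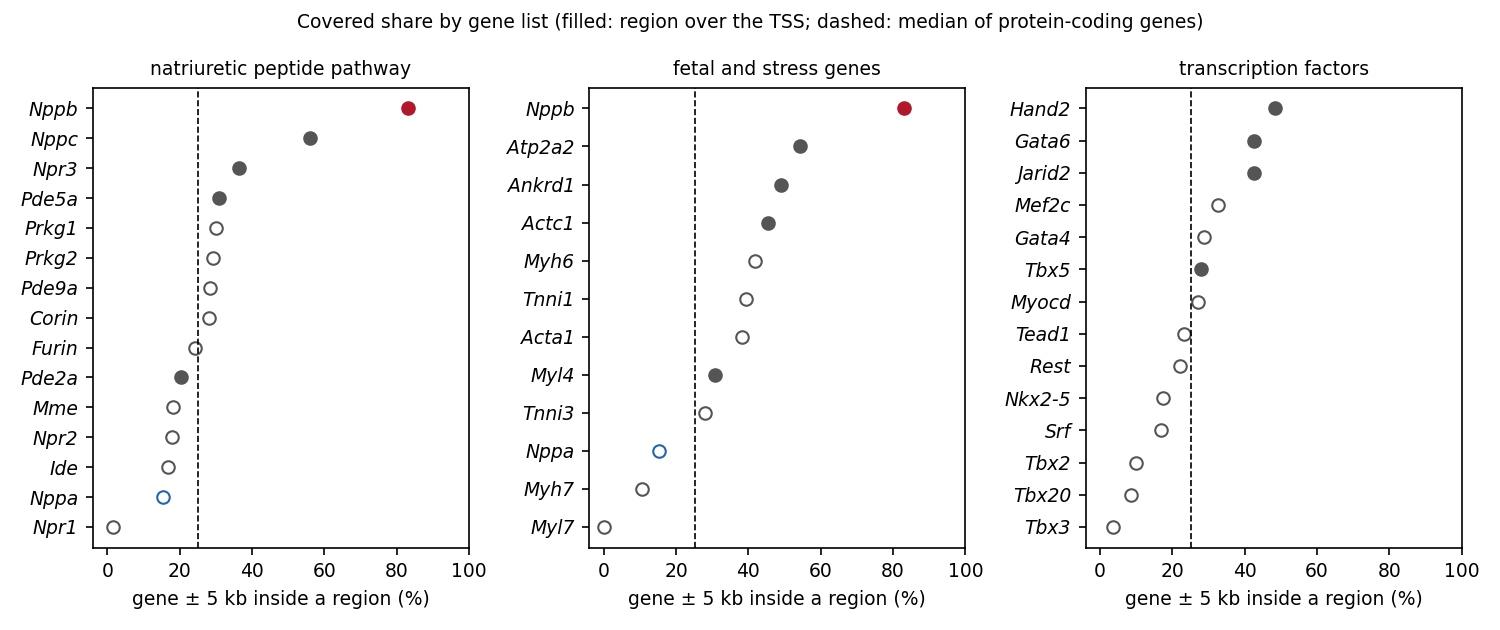
Percentage of each gene with 5 kb on either side that lay inside a BRG1 region, for the natriuretic peptide pathway, fetal, stress and adult counterpart genes of heart muscle, and transcription factors that act on Nppa or Nppb. Filled points have a region over the TSS, and the dashed line marks 25.2%, the median of protein-coding genes. Nppb (red) is highest at 83.0% and Nppa (blue) lies at 15.4%.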

How the data were processed

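BRG1 ChIP-seq was done by the authors on duplicate hearts per arm, with inputs. Reads were mapped with Bowtie 1.0.0 to mm9 and enriched regions called with MACS2 2.0.10 (versions per the submitters' processing notes). The methods name bdgcomp, but the list is named like an output of bdgdiff, which sorts regions into classes of a comparison; the exact call and the way duplicates were combined are not stated. The deposited values are region starts and ends in bp, used unchanged. Region lengths, where not over 100 kb, came in steps of 30 bp from 210 bp.

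From these, overlaps of at least 1 bp, covered shares and TSS distances were computed with Python 3.11.15, numpy 2.4.6 and scipy 1.17.1, and drawn with matplotlib 3.10.9, using NCBIM37 and GENCODE vM1. Same-size windows had at most 10% unsequenced bases. Interval functions were tested on simulated data, where 4000 of 4000 intervals matched. Named genes were Nppa, Nppb, genes overlapping the window and members of the 3 lists, including the highest and lowest of each; 1 gene of the window is not reported here. Members and lists were chosen with earlier results of these data known. RefSeq promoters matched both members. With 1 list, no test was made.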

Additional observations from a re-analysis of the deposited data

How the results depend on the processing

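Of 36 alternative values, 12 stayed close to the reported value (shares within a binomial interval, counts within 1.5 times) and 24 moved further. The interval was wider than one over single bases, as 84.9% for Nppb with regions joined counted as close to 83.0%. The counts of 12 and 24 hold for that rule only. The covered share of Nppb stayed above that of Nppa for the gene body, 5 kb and 10 kb flanks, joined regions and longer regions. It did not in windows of 25 and 50 kb on either side of each TSS (30.4% against 49.9% and 34.8% against 35.5%). Against 31 regions and 34.3% of the window, 25 kb flanks gave 15 regions and 38.6%, 100 kb flanks 61 regions and 27.5%, and regions of at least the median length 14 regions and 29.0%; joining regions within 500 bp gave 35.9%. The window's percentile of 82.8 became 84.0 among windows with a protein-coding gene start, 83.6 on chromosome 4, 87.0 by number of regions, 81.7 with regions joined and 85.4 among windows within 1 percentage point of its GC content, the last chosen after seeing the data. For Nppa, the body alone gave 0% and 0 regions, 10 kb flanks 24.7% and 7 regions, regions of at least the median length 7.74%, and genes of similar length percentile 40.1. For Nppb, the body alone gave 100% and 1 region, 10 kb flanks 48.2% and 4 regions, joining 1 region, and genes of similar length percentile 98.1. These follow from the sequence or the regions that each setting takes in. The distance from either TSS to its nearest region was the same with the RefSeq start, also chosen after seeing the data.

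No paired analysis was possible because the list carries no replicate, and leaving out a replicate could not be done for the same reason. The planned restriction to regions with the higher score was not run, as the list has no score. Depth, enrichment height and the spread between hearts are unknown, so no enrichment at Nppa and enrichment under the caller's threshold cannot be told apart. Percentiles compare the locus with other sequence in the same hearts, not with PBS-primed or uninjured hearts.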
